A study of Gasterosteus aculeatus with 62 samples.

Results

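The genes described here are the gene models of the threespined stickleback Y chromosome whose names carry the window numbers 50 to 99. The deposited counts list 657 models named for the Y chromosome, and 194 of these have a window number in that range. A model was kept where its mean over all 62 libraries was at least 1 CPM, which left 124 of the 194. CPM is a model's read count as a share of all reads counted in gene models in that library, scaled to the same total in every library. In the whole series, 16927 of 22295 models reached that level. The models lie in 36 of the 41 windows that hold any model in this range. The window is the whole number after "gene-" in an identifier such as maker-chrY-augustus-gene-65.23, and a model is called below by its number, here 65.23. Symbols, coordinates and sequences of these models were not used here: 0 of the 22295 identifiers matched the table of 52177 named entries.

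The sex chromosomes of the threespined stickleback derive from an ordinary chromosome pair, and males carry an X and a Y. The Y is passed from father to son and does not recombine with the X over most of its length, so variants along it are inherited together. Many of its genes still have a related copy on the X. A male has a single copy of a gene that is only on the Y, unless the gene has been duplicated there.

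RNA was sequenced from the diencephalon and the telencephalon of 31 males, giving 31 libraries per region. The telencephalon is the front of the fish forebrain, and the diencephalon lies behind it and includes the hypothalamus. Nesting males of the control group (7) were shown empty cages. Courtship males (8) were shown a gravid female in a cage, predator males (8) a trout model in a cage together with odour, and tradeoff males (8) both the female and the trout model. Odour is mentioned by the labels under predation risk alone. Brains were taken 1 hour after the trial. All animals were males: no female libraries were analysed here, so the level that reads from an X copy give to these models was not measured. A male is named by the number in its label, and its diencephalon and telencephalon libraries share that number.

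The libraries held 35.6 M counts in gene models on average (SD 5.35 M, n = 62), from 26.2 M to 51.1 M. Reads that aligned to several places made up 10.3% of the tallied reads on average, from 4.66% to 14.6%, and are in no model's count. Reads shared with an identical stretch of an X copy or of a second Y copy are therefore missing from the values below. The telencephalon library of male 42, of the predator group, stood apart from the rest. It had the lowest value of its region for 45 of the 124 models and the highest for 22, together 67, while the next most extreme library, the diencephalon of male 12, had 20. Results that involve the telencephalon are given with and without it where it moves them. The labelled regions were not checked against marker genes, since no symbol could be matched to any model with the table at hand. These are bulk samples, in which fewer cells of a type and less RNA per cell cannot be told apart.

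Most of the 124 models were counted at low to moderate levels in every male. Of the 194 models, 4 had no count in any library, 66 had a mean above 0 but under 1 CPM, 68 had a mean of 1 to 10 CPM, 51 a mean of 10 to 100 CPM, and 5 a mean over 100 CPM. The median of the 124 means was 8.29 CPM. A total of 121 of the 124 were above 0 in all 62 libraries. The 3 with a library at 0 were 65.26, 65.52 and 58.9, and all 3 are described with the differences between males. Just inside the limit of 1 CPM were maker-chrY-snap-gene-79.1, with a mean of 1.005 CPM, and maker-chrY-augustus-gene-88.3, with 1.01 CPM. For 79.1 the telencephalon of male 42 had 3.59 CPM, and the other telencephalons 0.360 to 1.19 CPM. The place of 79.1 inside the limit depends on that library. Just outside were maker-chrY-snap-gene-97.0, with 0.896 CPM, and maker-chrY-augustus-gene-78.48, with 0.826 CPM.

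The 124 models together took a similar share of the counts in every library but 1. Their summed level was 2632 ± 68.9 CPM in the diencephalon (SD, n = 31), from 2455 to 2726. In the telencephalon it was 2543 ± 102 CPM (SD, n = 31), from 2069 to 2684. The lowest of these values, 2069 CPM, belonged to the telencephalon of male 42, and the other 7 predator telencephalons lay between 2484 and 2611 CPM. By treatment, the diencephalon means were 2635 ± 46.5 CPM in control (SD, n = 7), 2658 ± 68.3 in courtship (n = 8), 2585 ± 85.2 in predator (n = 8) and 2651 ± 53.1 in tradeoff males (n = 8). The telencephalon means were 2556 ± 68.9, 2554 ± 61.4, 2487 ± 173 and 2576 ± 36.0 CPM in the same order. In each region the group means differed by less than the SD of the predator group, which was the widest. The largest difference between means exceeded the SD of each other group. The predator mean, the lowest in each region, enters that difference and includes male 42 in the telencephalon. The mean without male 42 is not given here. The telencephalon medians, which a single library moves less, were 2538 CPM in control, 2578 in courtship, 2533 in predator and 2584 in tradeoff males.

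The 3 models named next took the largest shares of the counted reads, a measure that is not per length and so does not rank transcripts. Model 71.25 (maker-chrY-snap-gene-71.25) had 237 CPM in the lowest diencephalon library, a median of 259.8 and 285 in the highest. Its telencephalon values ran from 214 through a median of 275 to 293 CPM, and the lowest of them was male 42; the next was 249. Model 98.34 (maker-chrY-augustus-gene-98.34) ran from 122 through a median of 154 to 168 CPM in the diencephalon, and from 110 through 188 to 224 in the telencephalon, again with male 42 lowest. Model 87.12 (maker-chrY-snap-gene-87.12) ran from 89.0 through 158 to 180.0 CPM in the diencephalon and from 48.0 through 121 to 150.0 in the telencephalon. Its lowest telencephalon value was male 42 as well, and without that library the telencephalon range began at 105 CPM. All 3 overlapped between the regions.

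The region of the brain was the factor for which the most models were called. Expression differed between the regions for 95 of the 124 models, or 76.6%, in edgeR's quasi-likelihood test at a Benjamini-Hochberg adjusted p under 0.05. Among all 19321 genes tested the share was 66.6%, and among those with a mean of 1 CPM or more it was 69.8%. Of the 95, 57 were higher in the diencephalon, 46.0% of the models against 33.6% of all genes tested. The other 38 were higher in the telencephalon, 30.6% against 33.0%. The models' median log2 fold change, telencephalon minus diencephalon, was -0.05, and that of all genes was -0.01. No test of the models against other genes was made, and these shares are descriptions.

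Most of the region differences were small. The median absolute log2 fold change of the 95 called models was 0.30, against 0.36 for all called genes. Only 4 of the 124 models, or 3.23%, differed by more than 2-fold, against 11.2% of all genes tested. Beyond 1.5-fold, 7 models had their higher level in the telencephalon and 13 in the diencephalon. No share of all genes is set beside these counts, so whether all genes split alike is not shown. The remaining 29 models were not called. Compared within each male, the direction of a called model held in a median of 28 of the 31 males, against 29 for all called genes. It held in at least 28 males for 52 of the 95 models, or 54.7%, against 63.2% of all called genes, and in all 31 for 8, or 8.42%, against 14.9%. The lowest number was 15 of 31, for model 69.8, with a log2 difference of 0.07. Directions within males compare the CPM printed here, while the calls and log2 differences use library sizes scaled by TMM. Small differences can therefore differ in sign between them.

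Leaving out the telencephalon of male 42 gave 42 models with the higher level in the telencephalon and 57 with the reverse, and all 95 calls kept their direction and passed the threshold. The share of all genes called without that library was not computed, so whether other genes moved alike is not shown. With the male as a block in the fit, 101 models were called, 42 toward the telencephalon and 59 toward the diencephalon, against a background of 74.3%.

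Of the 24 windows with at least 3 models, 9 held called models of both directions. Window 93 held 2 models called toward the telencephalon and 3 called the other way. Some stretches of windows held called models of a single direction; they were picked after their values were seen and are given with no test. All 5 models of windows 50 to 52 were called higher in the diencephalon, with log2 fold changes from -0.88 to -0.13, as were all 6 of window 64, from -0.63 to -0.14. In windows 67 to 71, 9 of 13 models were called higher in the telencephalon and none in the diencephalon, with log2 fold changes from 0.05 to 0.72. In window 78, 6 of 8 were called higher in the telencephalon, from 0.14 to 0.48. The last windows split in direction. In windows 95 to 97, 9 of 11 models were called higher in the diencephalon and none in the telencephalon, and in windows 98 and 99 all 5 were called higher in the telencephalon, from 0.29 to 0.48. Models with neighbouring numbers can share a transcript, which could not be checked without coordinates.

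**Figure D1:**
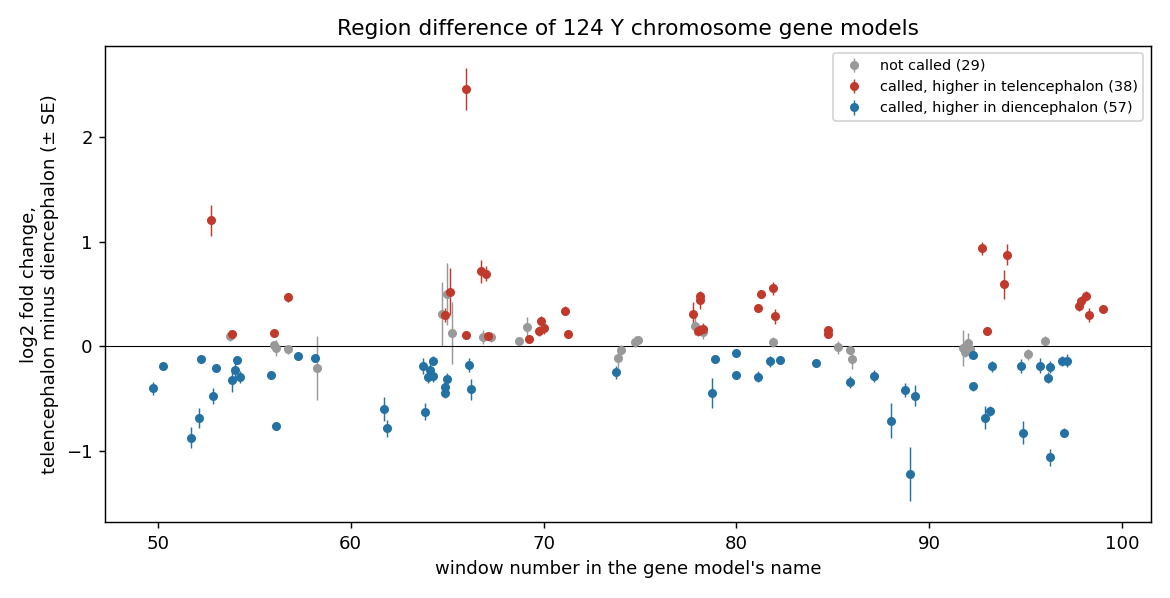
The log2 fold change, telencephalon minus diencephalon, of each of the 124 models (points, with SE bars from edgeR) is set against the window number in its name, with points of a window shifted sideways to separate them. The 38 called models above 0 and the 57 below 0 are spread over the windows, 9 of the 24 windows with at least 3 models hold both, and the highest and lowest points are models 66.40 at 2.46 and 89.52 at -1.22.

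The models with the smallest p were moderate in level and moved in nearly every male. Model 56.135 (maker-chrY-augustus-gene-56.135) ran from 35.9 through a median of 40.6 to 61.1 CPM in the diencephalon, and from 18.7 through 23.8 to 28.1 CPM in the telencephalon. With all libraries its regions did not overlap, which held for 1 of the 124 models, or 0.806%, against 2.11% of all genes tested. Without the telencephalon of male 42, models 93.110, 78.92, 66.40 and 96.100, described below, did not overlap either. The share of all genes without that library is not given here. The diencephalon level of 56.135 was higher in all 31 males. The fitted difference, telencephalon minus diencephalon on the log2 scale, was -0.77 (SE 0.0390, adjusted p = 1.99e-25, edgeR quasi-likelihood test). This fit, used for the region values below unless stated, did not pair the libraries of a male. With the male as a block the difference was -0.76 (adjusted p = 8.08e-20, edgeR). Model 97.8 (maker-chrY-snap-gene-97.8) ran from 37.2 through 47.1 to 62.1 CPM in the diencephalon and from 20.4 through 25.2 to 39.5 CPM in the telencephalon. Its ranges overlapped at their ends, and each of the 31 males was higher in the diencephalon. On the log2 scale, telencephalon minus diencephalon, the difference was -0.83 (SE 0.0442; adjusted p = 1.86e-24, edgeR).

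Toward the telencephalon, model 93.110 (maker-chrY-snap-gene-93.110) ran from 3.80 through 6.33 to 8.43 CPM in the diencephalon and from 4.47 through 11.8 to 14.3 CPM in the telencephalon. The 4.47 CPM was male 42, and the other 30 telencephalons began at 8.78 CPM, above every diencephalon. The region difference was, in log2 units, 0.94 (SE 0.0628; adjusted p = 3.79e-20, edgeR), or 0.96 without that library. Model 78.92 (maker-chrY-snap-gene-78.92) ran from 20.0 through 23.4 to 27 CPM in the diencephalon and from 21.4 through 31.5 to 35.7 CPM in the telencephalon. Male 42 again gave the lowest telencephalon value, and the other 30 began at 27.6 CPM, above the highest diencephalon. The fitted log2 difference was 0.48 (SE 0.0334; adjusted p = 1.50e-19, edgeR).

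The 4 models that passed 2-fold were singled out after their values were seen. Model 66.40 (maker-chrY-augustus-gene-66.40) had the largest difference, with 0.0748 CPM in the lowest diencephalon, a median of 0.386 and 1.49 in the highest. In the telencephalon it ran from 0.521 CPM, in male 42, through 2.55 to 4.39, and the other 30 telencephalons began at 1.61 CPM, above every diencephalon. It was higher in the telencephalon of all 31 males, by 2.46 on the log2 scale (SE 0.205; adjusted p = 2.71e-16, edgeR). Model 96.100 (maker-chrY-snap-gene-96.100) showed the opposite, with 37.3 through 43.0 to 46.3 CPM in the diencephalon and 12.1 through 18.0 to 47.9 CPM in the telencephalon. The 47.9 CPM was male 42, the single male with the higher telencephalon value, and the other 30 telencephalons ended at 31.8 CPM, below every diencephalon. As a log2 fold change this was -1.06 (SE 0.0811; adjusted p = 8.29e-18, edgeR), or -1.16 without that library.

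The other 2 models past 2-fold had a few high diencephalon libraries. Model 53.12 (maker-chrY-snap-gene-53.12) ran from 3.31 through 4.31 to 16.4 CPM in the diencephalon and from 0.905 through 11.1 to 17.9 CPM in the telencephalon. Male 42 held both the highest diencephalon and the lowest telencephalon value, and males 17 and 12 were also high in the diencephalon, at 15.0 and 8.76 CPM. These 3 males were the only ones of 31 with a higher level in the diencephalon. The log2 difference came to 1.20 (SE 0.146, adjusted p = 1.21e-10, edgeR), or 1.28 with the male as a block (adjusted p = 4.97e-07, edgeR). Model 89.52 (augustus_masked-chrY-processed-gene-89.52) ran from 0.810 through 1.38 to 20.1 CPM in the diencephalon and from 0.329 through 0.918 to 3.19 CPM in the telencephalon. Its 3 highest diencephalons were male 40, a control, at 20.1 CPM, male 34, a predator male, at 13.8 CPM, and male 38, a courtship male, at 5.83 CPM. The fitted log2 difference was -1.22 (SE 0.258; adjusted p = 3.64e-05, edgeR) with all libraries. Without the diencephalon of male 40 it was -0.85 (SE 0.210; adjusted p = 0.000367, edgeR), and with the male as a block it was -0.79 (adjusted p = 0.00343, edgeR), both under 2-fold.

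Among these 8 models the telencephalon of male 42 lay within the range of the diencephalons for 93.110, 78.92 and 66.40, above all of them for 96.100, and below all of them for 53.12 and 89.52. For models 56.135 and 97.8 it lay within the range of the other telencephalons, at 22.4 and 25.1 CPM. Whether that library holds tissue of both regions was not tested.

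**Figure D2:**
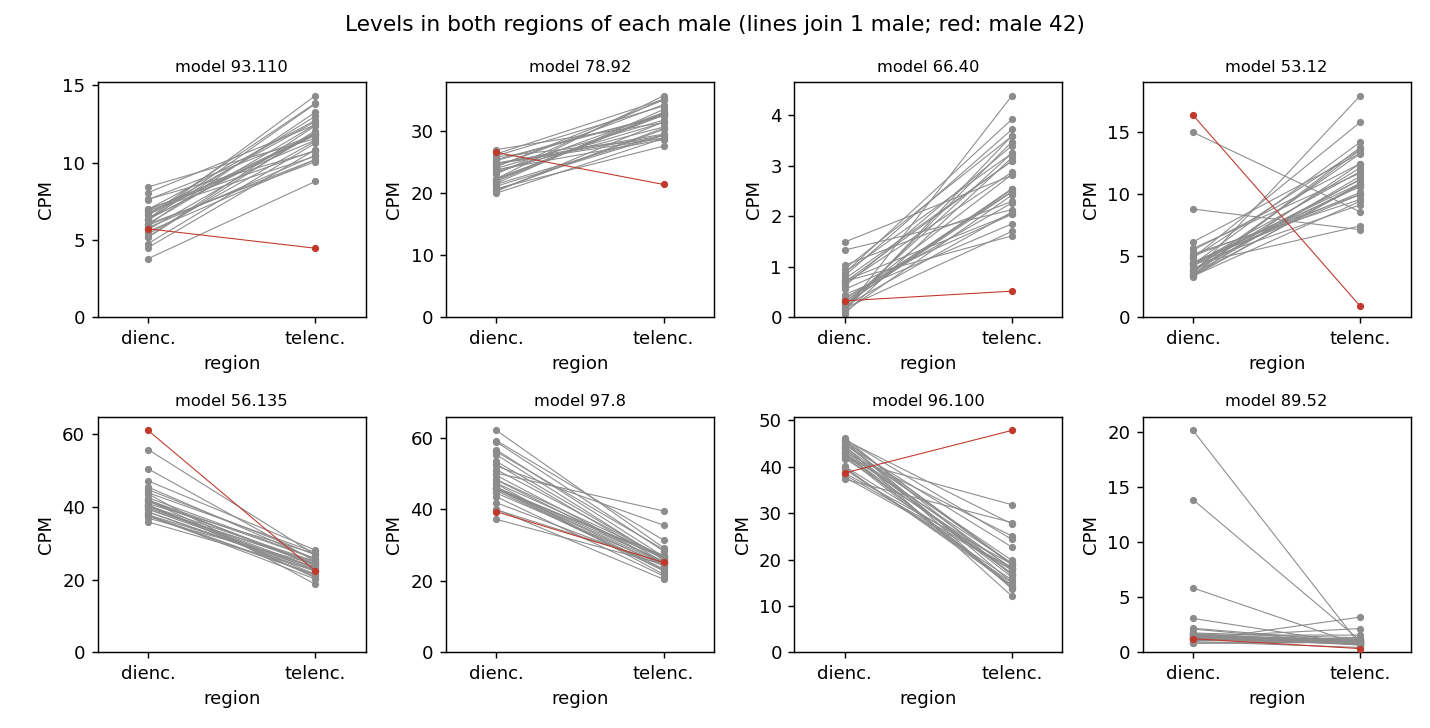
Level in CPM in the diencephalon (left) and telencephalon (right) of each of 31 males for the 4 models with the smallest p and the 4 past 2-fold, with a line for each male and male 42 in red. Male 42 crosses the other lines for models 93.110, 78.92, 53.12 and 96.100, and single high diencephalon values stand out for model 89.52.

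Differences between males formed the second comparison. With 2 libraries per male, each male's level was tested over both regions against the other males of its treatment, with 27 degrees of freedom. By this edgeR quasi-likelihood test, 30 of the 124 models, or 24.2%, differed between males at an adjusted p under 0.05. The background was 41.6% of all 19321 genes tested, and 43.2% of those with a mean of 1 CPM or more. Without both libraries of male 42, 36 models were called against a background of 50.9%, and 27 of the 30 were among them. DESeq2 called 45 models against a background of 57.3%, and limma voom 39 against 55.7%. Of the 30, 21 were also called between the regions and 9 were not, while 20 of the 124 models were called in neither comparison. Among all genes called between males 57.7% were also called between the regions, against 70% of the 30 models, and 15.9% of all genes were called in neither comparison, against 16.1% of the models. The 30 were spread over 18 of the 36 windows.

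The share of the variance that lies between males puts a size on this. It was computed on log2 CPM after the group means were removed, and runs from 1, where both libraries of a male deviate alike, to below 0, where they deviate in opposite directions. Its median over the 124 models was 0.19, with quartiles at 0.0101 and 0.351. Over all genes tested the median was 0.31, with quartiles at 0.101 and 0.517. Without male 42 the medians were 0.25 and 0.37. Within a region the models varied about as much as other genes did: the median coefficient of variation was 13.1% in the diencephalon, against 13.3% for all genes. In the telencephalon, without male 42, it was 14.2% against 14.4%.

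Set beside the other Y chromosome models that passed the same limit, the share called between males was 33.7% of 104 models in windows 0 to 49 and 32.7% of 162 in windows 100 and above. The shares called between regions were 68.3% and 63.0%. These values were not tested against each other.

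**Figure D3:**
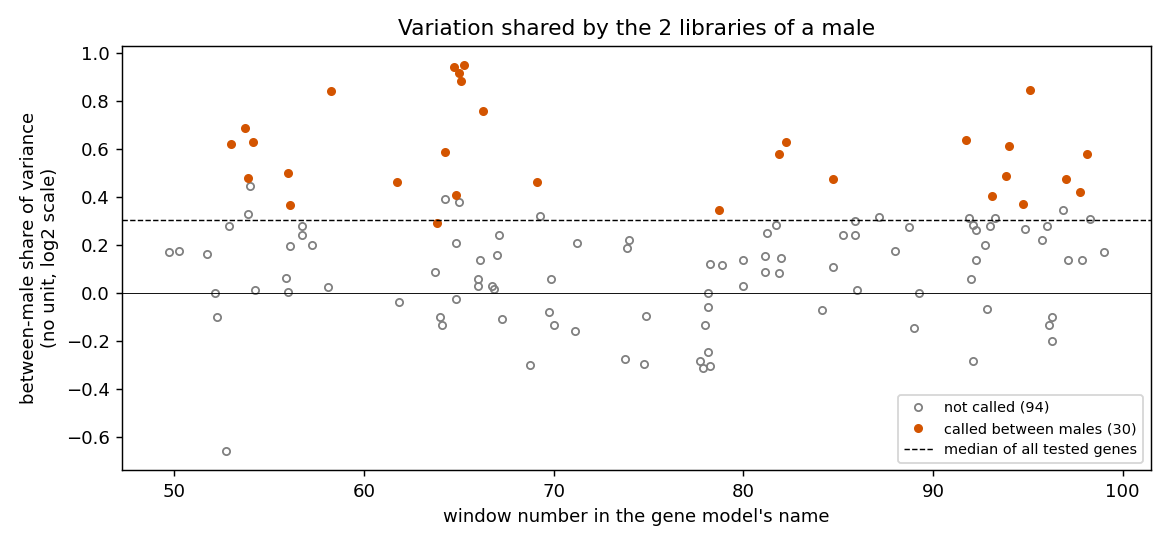
The share of variance lying between males (no unit, from log2 CPM) is plotted for each of the 124 models against the window number in its name, with the 30 models called between males filled and the median of all genes tested, 0.31, as a dashed line. The highest points cluster in window 65, and most open points lie below the dashed line.

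The 4 models with the smallest p between males were all in window 65, and some males had almost no counts for them. Model 65.23 (maker-chrY-augustus-gene-65.23) had a diencephalon level of 0.0260 CPM in male 24 (1 count) and 0.129 CPM in male 33 (6 counts), and then 0.633 CPM in male 41. The median was 2.83 and the highest 5.52 CPM. In the telencephalon males 24 and 33 had 1 count each, 0.0276 and 0.0371 CPM, the third lowest was male 40 at 0.696 CPM, the median was 3.16 and the highest 5.48 CPM. The 2 libraries of a male thus stood at like levels, and the between-male share was 0.95 (adjusted p = 4.10e-12, edgeR).

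Model 65.26 (maker-chrY-augustus-gene-65.26) ran from 0.0429 CPM, 2 counts in male 33, through 3.001 to 6.69 CPM in the diencephalon. In the telencephalon it had no count in male 33, where a count of 0 allows up to 0.111 CPM, a median of 3.68 and a highest value of 8.28 CPM. Males 33 and 24 were the lowest in both regions, and the between-male share was 0.94 (adjusted p = 5.76e-11, edgeR). Model 65.52 (augustus_masked-chrY-processed-gene-65.52) ran from 0.0520 CPM, 2 counts in male 24, through 1.69 to 4.499 CPM in the diencephalon, and from 0 in male 33 through 2.58 to 5.48 CPM in the telencephalon. Its between-male share was 0.92 (adjusted p = 7.81e-10, edgeR). Model 65.20 (maker-chrY-augustus-gene-65.20) ran from 0.234 through 2.87 to 7.11 CPM in the diencephalon and from 0.799 through 4.09 to 8.44 CPM in the telencephalon. It was low rather than near 0 in males 24 and 33, and its between-male share was 0.89 (adjusted p = 4.90e-09, edgeR).

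Across these 4 models and 2 regions there are 8 orders of the 31 males. Males 24 and 33, both of the predator group, were the lowest pair in all 8. Male 41, a courtship male, was the next lowest in 6 and male 40, a control, in the other 2, and male 38, a courtship male, was the highest in 6. The summed level of the 4 models was 0.442 CPM in male 24 and 0.494 CPM in male 33 in the diencephalon, against a median of 10.8 CPM, and 0.937 and 0.854 CPM in the telencephalon, against a median of 14.3 CPM. Their 4 libraries held 26.9 M to 46.6 M counts, within the range of the series.

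Window 65 holds 10 models, of which 8 reached 1 CPM, and the other 4 did not have males 24 and 33 as their lowest pair. For models 65.13, 65.34, 65.50 and 65.97, named because they share the window, the lowest male stood at 54.6% to 79.5% of the median. Model 65.34 (maker-chrY-augustus-gene-65.34) is the most strongly counted of the 8, with 12.5 through 19.98 to 26.7 CPM in the diencephalon and 14.1 through 22.4 to 34.5 CPM in the telencephalon. Male 24 had 22.1 and 30.2 CPM and male 33 had 18.9 and 16.4 CPM, inside the range of the other males in both regions, with male 33 among the 3 lowest telencephalons. In the telencephalon male 33 was also the lowest for 65.97, at 6.20 CPM against a median of 7.99, and the next to lowest for 65.50, at 6.57 CPM against 9.24. Of the 8 models, males 24 and 33 stood under 10% of the median in both regions for 65.23, 65.26 and 65.52, and in the diencephalon alone for 65.20. Whether the 4 models are parts of a single transcript, or copies of each other, could not be checked without coordinates and sequence.

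**Figure D4:**
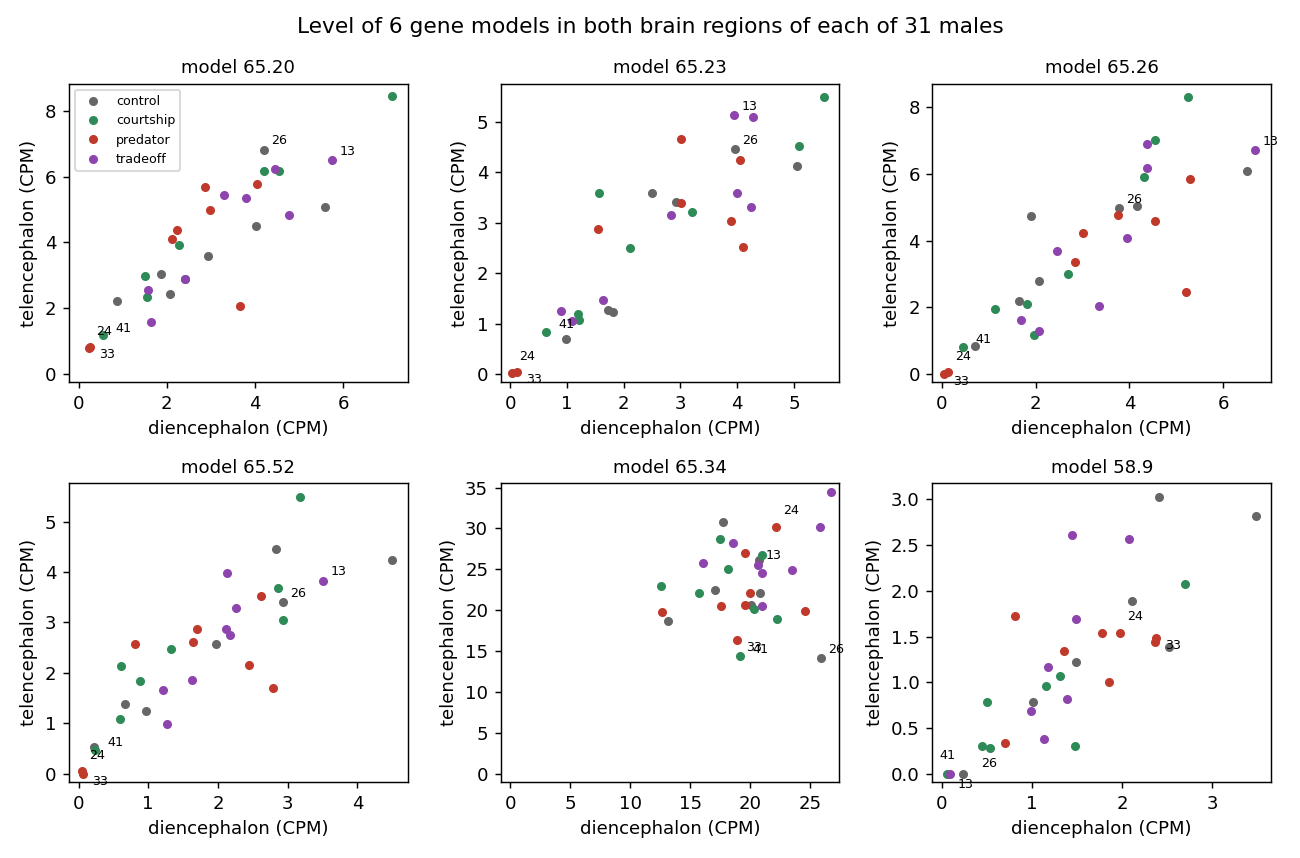
Each point is a male, with its level in CPM in the diencephalon on the x axis and in the telencephalon on the y axis, coloured by treatment, for the 4 models of window 65 that differ most between males, for 65.34 of the same window and for 58.9. Males 24 and 33 lie at the origin for 65.23, 65.26 and 65.52 but inside the cloud for 65.34, and males 41, 13 and 26 lie at the origin for 58.9.

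A different set of males was near 0 for model 58.9 (maker-chrY-snap-gene-58.9). In the diencephalon male 41 had 0.0528 CPM (2 counts), male 13 had 0.0933 CPM (3 counts) and male 26 had 0.231 CPM (11 counts), against a median of 1.39 and a highest value of 3.48 CPM. In the telencephalon the same 3 males had no count, which allows up to 0.0790, 0.0927 and 0.0805 CPM, against a median of 1.17 and a highest value of 3.02 CPM. They were a courtship, a tradeoff and a control male. Male 41 was also low for models 65.20, 65.23, 65.26 and 65.52, while males 13 and 26 were not. Males 24 and 33 lay above the median of 58.9 in both regions. The between-male share was 0.84 (adjusted p = 9.73e-06, edgeR). Of the 119 models with a median of at least 1 CPM in both regions, 58.9, 65.23, 65.26 and 65.52 were the 4 whose lowest male stood under 10% of the median in both regions. The share of all genes that meet this limit was not computed. Models 65.23, 65.26 and 65.52 share window 65 and the lowest pair of males, 24 and 33.

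The remaining 2 of the 6 models with the smallest p varied less in size. Model 95.34 (maker-chrY-snap-gene-95.34) ran from 19.9 through 28.7 to 34.2 CPM in the diencephalon and from 18.0 through 26.6 to 31.5 CPM in the telencephalon. Male 24 was lowest in both regions and male 41 was among the 3 lowest in both. Its between-male share was 0.85 (adjusted p = 1.15e-07, edgeR). Model 66.9 (maker-chrY-snap-gene-66.9) ran from 4.51 through 7.34 to 12.5 CPM in the diencephalon and from 2.90 through 5.61 to 9.74 CPM in the telencephalon. Males 41 and 46 were among the 3 lowest in both regions. Its between-male share was 0.76 (adjusted p = 7.06e-06, edgeR), and it was also called higher in the diencephalon, by -0.42 in log2 (SE 0.0991; adjusted p = 0.000214, edgeR).

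Over the 30 models called between males, male 24 was among the 3 lowest in both regions for 5, male 41 for 5 and male 33 for 4. For male 33 these were 65.20, 65.23, 65.26 and 65.52 of the same window, and for male 24 the same models and 95.34. Male 42 was among the 3 highest in both regions for 5 models, and males 12 and 38 for 4 each. No male was at either end for most of the 30 models.

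The treatments asked whether a courtship opportunity, a predation risk or both changed expression. In each region 9 contrasts were tested: the 6 pairs of treatments, the female averaged over both cue states, the predator cue averaged over both female states, and their departure from additivity. None of the 124 models was called in any of the 9 contrasts in either region by edgeR's quasi-likelihood test, and the background was 0% of all genes in each contrast. DESeq2 and limma voom each called 1 model in the diencephalon, in tradeoff minus predator, where they called 0.0159% and 0.00528% of all genes. In the telencephalon both called 0 of the models.

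At an unadjusted p under 0.05 (edgeR), the shares of the models lay near those of all genes. In the diencephalon courtship minus control gave 5 models against a background of 4.54% of all genes, predator minus control 4 against 3.18% and tradeoff minus control 3 against 3.75%. Tradeoff minus courtship gave 6 against 3.35%, tradeoff minus predator 4 against 4.69% and courtship minus predator 5 against 6.54%. The averaged female effect gave 6 against 6.4%, the averaged cue effect 2 against 3.3% and the departure from additivity 6 against 3.02%. As shares of the 124 these counts are 1.61% to 4.84%.

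In the telencephalon, at the same threshold, courtship minus control gave 0 models against a background of 2.97%, predator minus control 3 against 3.59% and tradeoff minus control 4 against 2.24%. Tradeoff minus courtship gave 2 against 4.52%, tradeoff minus predator 7 against 5.35% and courtship minus predator 4 against 4.96%. The averaged female effect gave 5 against 3.32%, the averaged cue effect 4 against 3.25% and the departure from additivity 4 against 4.87%. As shares of the 124 these counts are 0% to 5.65%.

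Whether a treatment acted differently in the regions was tested for each treatment against control. By edgeR, DESeq2 and limma voom 0 of the 124 models were called. The share of all genes called in these contrasts is not given here. At an unadjusted p under 0.05 (edgeR) the count was 1 model for courtship against a background of 2.04%, 2 for predator against 1.89% and 5 for tradeoff against 1.24%. As a share of the 124, the count lay above the background for tradeoff and below it for courtship and predator. These shares were not tested against the background.

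Without the telencephalon of male 42, still none of the models was called in the telencephalon. The share of all genes called at the adjusted threshold in these fits is not given here. More models passed an unadjusted p under 0.05 in contrasts that involve the predator group, such as those that follow. In tradeoff minus predator 17 of the 124 passed, 10 higher and 7 lower, or 13.7% against 12.1% of all genes. In the departure from additivity 13 passed, against 4 with that library, or 10.5% against 15.3% of all genes.

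The precision of these null results can be stated in folds. The median SE of a pairwise log2 fold change was close to 0.10 in the diencephalon and 0.12 in the telencephalon. Over the 9 contrasts of each region, the 95% interval of the difference stayed inside 2-fold, up or down, for 112 to 123 of the 124 models, and inside 1.5-fold for 81 to 115.

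Model 96.49 (maker-chrY-augustus-gene-96.49) had the smallest treatment p in the diencephalon. Its level ran from 2.40 through a median of 2.99 to 3.39 CPM in control, from 2.43 through 3.29 to 3.72 in courtship, from 2.40 through 2.58 to 3.35 in predator and from 3.46 through 3.70 to 4.51 CPM in tradeoff males. All 8 tradeoff males lay above all 7 control and all 8 predator males, and they overlapped with the courtship males. The model was picked for its small p among these same values, so the separation adds no support to the test. The tradeoff minus predator log2 fold change was 0.50 (SE 0.0991, adjusted p = 0.333, edgeR), which did not pass the threshold. The adjusted p was 0.00696 in DESeq2 and 0.0367 in limma voom, the 1 treatment call that each of these tools made among the models. It ran from 0.273 to 0.360 in the other edgeR settings. In the telencephalon the groups overlapped, with ranges of 1.75 to 2.73 CPM in predator and 1.85 to 3.66 CPM in tradeoff males, and showed a tradeoff minus predator difference of 0.28 in log2 (SE 0.139; adjusted p = 0.931, edgeR).

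Model 74.38 (maker-chrY-snap-gene-74.38) had the smallest treatment p in the telencephalon. It ran from 7.38 through 8.54 to 9.42 CPM in courtship and from 9.51 through 10.3 to 14.1 CPM in tradeoff males, so that these groups did not overlap. This model too was picked for its small p, and the separation adds no support to the test. Control males lay between 8.30 and 11.9 CPM and predator males between 6.42 and 10.9 CPM, across both. The tradeoff minus courtship log2 fold change was 0.35 (SE 0.104, adjusted p = 0.973, edgeR), and the adjusted p was 0.507 in DESeq2 and 0.490 in limma voom.

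**Figure D5:**
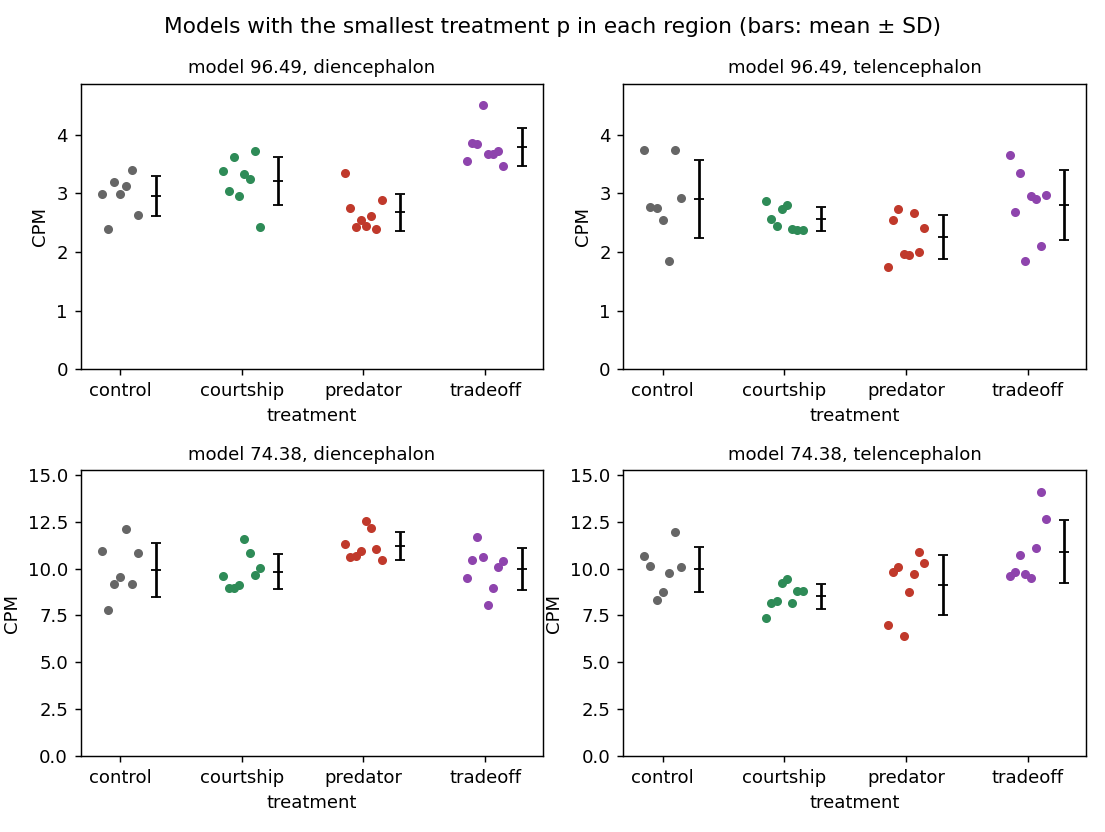
Level in CPM of models 96.49 (top) and 74.38 (bottom) in each library, by treatment, in the diencephalon (left) and telencephalon (right), with bars at the mean and SD of each group of 7 or 8 males. For 96.49 the tradeoff diencephalons start at 3.46 CPM, above the highest control at 3.39, and for 74.38 the tradeoff telencephalons start at 9.51 CPM, above the highest courtship male at 9.42. Both models were picked for the smallest treatment p in a region, and neither passed the threshold in edgeR.

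The models that differed most between males showed no treatment difference that passed the threshold. For model 65.23 in the diencephalon, predator minus control was -0.12 on the log2 scale with an SE of 0.578 (adjusted p = 1.00, edgeR), although its lowest males were both predator males. Over the 9 contrasts in both regions, the smallest unadjusted p among the 6 models with the smallest p between males and 58.9 was 0.0462. It belonged to predator minus control of model 95.34 in the diencephalon, with a log2 difference of -0.20 (SE 0.0974; adjusted p = 1.00, edgeR).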

How the data were processed

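The deposited values were whole-number read counts for each gene model, with a file for every library. The authors' tools for making these counts were STAR and HTSeq, per the submitters' processing notes. The sources used here give no version, genome build, annotation or strand setting, so a model and an overlapping antisense model cannot be assumed to be separated. Per the labels' protocols the kit was stranded, RNA was polyadenylated and all libraries ran in 1 lane. Tally lines stayed out of library sizes: 44.5% of tallied reads were outside all models, 10.3% had several alignments and 0.705% were ambiguous.

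Tests were fitted on all genes with edgeR 4.0.16 (R 4.3.3). Low genes were removed with filterByExpr at a minimum count of 10 and a minimum total of 15, library sizes were scaled by TMM, and p-values came from robust quasi-likelihood F tests with Benjamini-Hochberg adjustment over all genes tested. The region comparison averaged over treatments in a fit of all 62 libraries in 8 groups, which did not pair the regions of a male. The treatment contrasts used each region alone. Males were tested as 27 coefficients nested in treatment. Log2 CPM used a prior count of 2. CPM values printed are on the sum of counts in gene models. Alternatives were RLE size factors, no filter, DESeq2 1.42.0, limma 3.58.1 (voom with sample quality weights), leaving out libraries, the male as a block, and other limits on CPM.

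Region libraries of the same number come from the same male. Their deviations from the group means correlated with r = 0.198 to 0.550 across genes, against a mean of -0.0124 between different males, and 30 of 31 males correlated best with themselves. No pair of libraries held identical values. Nothing in the labels ties males to families or tanks.

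The models, and the rule by which some are named, were chosen with earlier results of these data known. The rule named the 2 models with the smallest p in each direction between regions, the model with the smallest treatment p in each region, the 6 with the smallest p between males, any model nearly off in some males in both regions, the 3 with the largest share of counts, and 4 around the limit of 1 CPM. The others are said to have been picked after their values were seen. Intervals of folds are 95% intervals, and the limit that a count of 0 allows is 3 counts per library. It covers counting error only.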

Additional observations from a re-analysis of the deposited data

Results flagged for a closer look

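Single libraries far from the rest of their group were looked for among 168 groups of 7 or 8 values, for the summed level and the 20 models named by rule or picked later. The gap to the nearest of the others, set against the range of the group, was over Dixon's 95% limit in 18 of them. Chance gives about 1 in 20 for separate groups not chosen by their values. These models were chosen by their values and share libraries, so that rate is not a measure for them.

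Male 42's telencephalon, of the predator group, accounted for 6. Its summed level of the 124 models was 2069 CPM, against 2484 to 2611 in the other 7. It was low for 71.25 at 214 CPM (others from 263), for 98.34 at 110 CPM (others from 186), for 87.12 at 48.0 CPM (others from 114) and for 78.92 at 21.4 CPM (others from 28.8). It was high for 96.100 at 47.9 CPM (others up to 19.2).

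Model 89.52 accounted for 5, each a single high male. In the diencephalon these were male 40 at 20.1 CPM among controls (others up to 2.10), male 38 at 5.83 CPM among courtship males (others up to 1.62) and male 34 at 13.8 CPM among predator males (others up to 3.07). In the telencephalon they were male 4 at 2.15 CPM among controls (others up to 1.22) and male 23 at 3.19 CPM among predator males (others up to 1.16). No male was flagged for this model in both regions.

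The other 7 were diencephalon libraries. Among tradeoff males, male 11 was low for 96.100 at 37.8 CPM (others from 42.8), male 46 was low for 66.9 at 4.77 CPM (others from 7.08), and male 13 was high for 65.52 at 3.51 CPM (others up to 2.26) and for 96.49 at 4.51 CPM (others up to 3.87). Without male 13 the tradeoff males still began at 3.46 CPM for 96.49, above all controls, in a model picked for its small treatment p. Male 12 was high for 53.12 at 8.76 CPM among controls (others up to 4.44), male 18 was low for 98.34 at 128 CPM among courtship males (others from 149), and male 33 was high for 97.8 at 62.1 CPM among predator males (others up to 45.9).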

How the results depend on the processing

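The number of models called for treatment in the diencephalon went from 0 in edgeR to 1 in DESeq2 and 1 in limma voom, in both for 96.49 in tradeoff minus predator; the cause was not tested. All 95 models called between regions kept their direction under the 7 alternatives compared, and 94 or 95 kept the call. The number higher in the telencephalon ran from 38 to 46 and the number higher in the diencephalon from 56 to 59. The replicate block, which pairs the regions of a male, gave 42 and 59, and 46 and 59 without male 42, an alternative added after seeing the data. It changed no call among the 8 models named for the region. DESeq2 gave no adjusted p for 89.52. Between males, 30 to 45 models were called, and 26 to 30 of the original 30 were among them. A limit of 2 CPM would keep 110 models, a median in place of the mean 122, and TMM-scaled CPM 124. No alternative run turned a direction of a result given here.

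Depth limits the low models most: for model 58.9, a telencephalon level of 1.17 CPM in male 1 rested on 49 counts. The libraries held 26.2 M to 51.1 M counts. Reads with several alignments are missing from every level given, and reads of X copies that differ too little to be told apart by the aligner could not be separated. No female library sets that background here.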
